A study of Homo sapiens with 16 samples.

Results

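Control Nalm6 cells were compared with and without prednisolone. Nalm6 is a human cell line from an acute lymphoblastic leukaemia of B-cell precursors, and prednisolone is a synthetic glucocorticoid used against this leukaemia. The comparison takes 8 of the 16 arrays of the series, chosen by their titles: 4 arrays of control cells given the drug for 24 hours and 4 of control cells left untreated. Both groups carry the genotype label control, and the sources used here do not say what, if anything, was introduced into them. The other 8 arrays are of cells labelled as overexpressing active CASP1, an inflammatory caspase, under the same pair of treatments. All arrays are of 1 cell line. Those labelled CASP1 share the estimate of the spread and are used in 1 comparison near the end. The sample labels spell the drug as a form of prednisone and the treatment protocol as prednisolone. The sources used here give no dose, cell viability or cell cycle phase. The labels do not tie arrays to separate cultures, and the p-values therefore cover the spread among these samples alone, which may be technical.

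Glucocorticoids bind the glucocorticoid receptor, which heat shock proteins keep in the cytoplasm in a state able to take up hormone. The bound receptor moves to the nucleus, raises some genes through response elements in DNA and lowers others through contacts with other factors. In B-cell precursors the hormone is known to stop the cell cycle and to bring on apoptosis through the BCL2 family, and treatment of this leukaemia rests on that response.

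Each gene was read from 1 probe set, and its value is a log2 signal normalised by RMA, a method that brings arrays to a common scale. The difference given for a gene is the mean of the 4 treated arrays minus the mean of the 4 untreated arrays, so a difference of 1 is 2-fold. SE is the standard error of that difference. A gene was called when its adjusted p in limma, over all 18132 genes, was under 0.05, and "rose" and "fell" are used for called genes. All n are 4 arrays per group.

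The arrays carried the label's cell type. All 14 measured B-precursor markers, among them VPREB1 of the surrogate light chain, lay above the median gene, with untreated means from 6.45 to 12.98 against a median of 5.45 over all genes. Medians of the marker lists of T and NK, myeloid, erythroid and platelet, and stromal and epithelial cells lay between 3.48 and 4.17. Some of their members were brighter. Of 15 T and NK markers 3 lay above the median gene, the highest being LCK at 8.43, above the dimmest B-precursor marker. So did 1 of 19 myeloid markers, at 5.54, and none of the other lists. Replicate 1 of each group stood apart: its mean correlation with the other arrays of its group was 0.9926 untreated and 0.9933 treated, against 0.9958 to 0.9963 for the other control arrays.

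Prednisolone changed 2568 of 18132 genes in control cells, or 14.2%. Of these 1039 rose (5.73% of all genes) and 1529 fell (8.43%). The counts of gene lists below are to be read beside these shares. The lists and their members were chosen with earlier results of these data known, which can raise the shares called. Falls were more frequent, but rises reached farther: 58 genes rose at least 4-fold and 4 fell that much. At least 2-fold, 242 genes rose (1.33%) and 122 fell (0.673%). The 2-fold risers started from a median untreated signal of 6.44 and the 2-fold fallers from 8.37, so the falls were in brighter genes. The treated and untreated arrays did not overlap for 2385 of the called genes, against 20.9% of all genes without overlap. With the 4 arrays of replicate 1 of all groups left out, 3969 genes were called, and 2495 of the 2568 were among them. The plot of difference against level labels some of the genes.

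**Figure D1:**
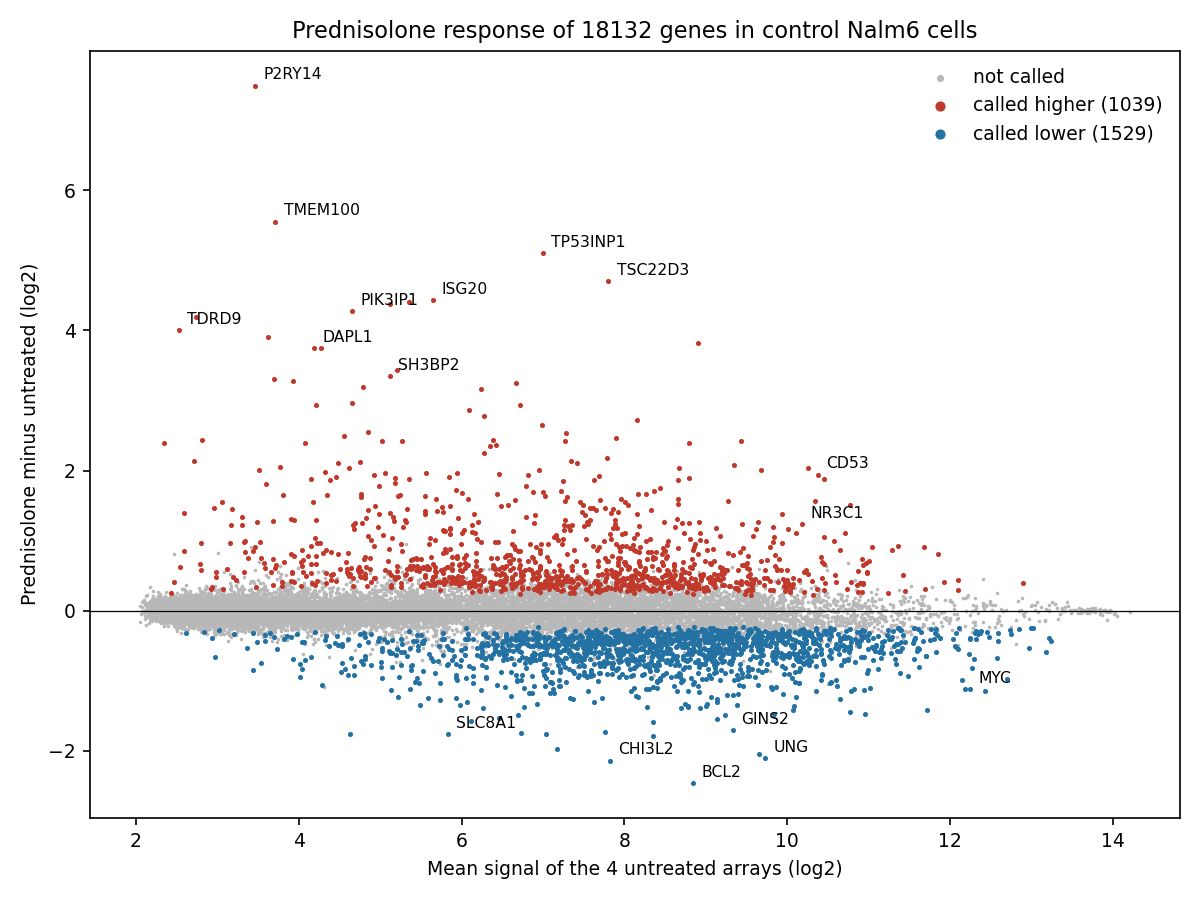
Each point is 1 of 18132 genes, with the mean log2 signal of the 4 untreated control arrays on the x axis and prednisolone minus untreated (log2) on the y axis; red points were called higher, blue lower and grey not called. The rises reach 7.49 and the falls -2.46, and the blue points lie mostly to the right of the median level of 5.45.

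The receptor itself rose. NR3C1, which encodes the glucocorticoid receptor, had signals of 9.93, 10.24, 10.27 and 10.29 on the untreated arrays and 11.49, 11.39, 11.41 and 11.41 on the treated ones. The groups did not overlap, and the rise was 1.24 (SE 0.098, limma adjusted p = 7.3e-08). NR3C2, the mineralocorticoid receptor that binds the same hormones, fell by 0.54, with overlapping arrays and a call lost without replicate 4 of either group. Of 10 chaperones, 4 fell, and of 11 co-chaperones 2 rose and 3 fell. FKBP5, a co-chaperone that lowers the receptor's hormone binding, rose by 2.42, while FKBP4, its counterpart that favours transport to the nucleus, fell by 0.61 (adjusted p = 0.00054). Only 1 of 3 FKBP4 probe sets was called, and the 3 ranged from -0.61 to -0.074. PTGES3, the p23 co-chaperone of HSP90, fell by 0.41, and the mitochondrial chaperones HSPE1 and HSPA9 fell by 0.71 and 0.58. NCOA1, a coactivator of the receptor, rose by 0.39, and CREBBP, a histone acetyltransferase that assists it, by 0.38. Other CREBBP probe sets gave 0.087 to 0.38 and were not called.

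Known target genes of the receptor rose more often than they fell. Of 48 measured targets 22 rose (45.8%) and 5 fell (10.4%), against 5.73% and 8.43% of all genes, so the falls were near the share of all genes. The median difference of the targets was 0.25 against -0.015 over all genes. Without the dimmest 30% of genes that median was 0.59, and without untreated replicate 1 it was 0.17. Of 14 transcription factors 7 rose. They included KLF9 (1.78) and KLF13 (1.71), zinc finger factors, as well as KLF2, whose untreated signals were 4.72, 5.65, 5.27 and 5.78 and treated signals 9.09, 9.93, 10.13 and 9.89. Of 15 feedback and anti-inflammatory genes 7 rose and 3 fell, with differences from -1.14 to 4.70. The fallers were DUSP1, a phosphatase that switches off MAP kinases, TNFAIP3, the A20 inhibitor of NF-kappaB, and RGS2, a brake on G-protein signals. DUSP1 signals were 10.74, 11.11, 10.91 and 10.99 untreated and 9.84, 9.92, 9.60 and 9.85 treated, a fall of 1.14 (SE 0.11, adjusted p = 5.8e-07) on all 4 of its probe sets. TNFAIP3 fell by 0.65 and RGS2 by 0.92. CDKN1C, the p57 inhibitor of cyclin-dependent kinases, also went against the list, from 8.35, 8.42, 8.27 and 8.35 untreated to 6.54, 6.84, 6.81 and 6.86 treated (fall of 1.58, adjusted p = 4.7e-06). In none of these 4 genes did the groups overlap.

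Among metabolic and other targets, PIK3IP1, an inhibitor of PI3 kinase, rose by 4.28 and TGFBR3, a TGF-beta co-receptor, by 1.66. DDIT4, a brake on mTOR, rose by 1.11, and SESN1, a stress-induced brake on mTOR, by 0.91 with overlapping arrays. Brakes on PI3 kinase and mTOR did not rise as a class. Of 29 in their own list 4 rose (13.8%) and 7 fell (24.1%), with differences from -1.09 to 4.28. RGS1, another brake on G-protein signals, had treated signals of 3.71, 6.33, 5.78 and 5.80, so replicate 1 overlapped its untreated arrays at 3.19, 3.86, 3.75 and 3.58. Its difference was 1.81 (SE 0.39, adjusted p = 0.0032), and 1 of its 2 probe sets was called. Without the replicate 1 arrays the difference was 2.24. In the clock list 2 of 17 genes rose (11.8%) and 1 fell (5.88%), against 5.73% and 8.43% of all genes. PER1, a clock repressor, rose by 1.83 and NFIL3, a bZIP factor tied to the clock, by 0.99. PER1 was called on 1 of 3 probe sets.

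Full response elements were too rare in the windows searched to compare risen genes with other genes. The 250 bases before each RefSeq gene start (GRCh38.p14) were searched on both strands for the canonical palindromic glucocorticoid response element. Windows were at hand for 869 of 1039 risen genes (1371 windows), and 0 held it, against 1 of 20403 windows of all measured genes. The half-site AGAACA was in 8.83% of windows of risen genes and 9.68% of those of all measured genes. These counts describe the letters in that window and say nothing on binding elsewhere.

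The largest rises were in genes of several unrelated functions. P2RY14, the UDP-sugar receptor, rose from 3.34, 3.44, 3.76 and 3.30 to 10.81, 11.12, 10.97 and 10.90, the largest rise of any gene. TMEM100, a transmembrane protein of BMP signalling, rose from 4.26, 3.67, 3.45 and 3.47 to 8.53, 9.58, 9.55 and 9.39, a difference of 5.55 (SE 0.32, adjusted p = 1.6e-09). In both genes each treated array was far above each untreated one, and both probe sets of each gene rose. ISG20, an exonuclease that degrades single-stranded RNA, rose from 5.62, 5.56, 5.60 and 5.82 to 9.70, 10.14, 10.31 and 10.16 (21.5-fold). TDRD9, a helicase of germline transposon silencing, rose from 2.30, 2.30, 2.77 and 2.74 to 6.85, 6.36, 6.38 and 6.53. Untreated TDRD9 lay near the lowest signals of the arrays, so no fold is given, while ISG20 began near the median gene. GSDME, a gasdermin that caspases cut to open pores in the membrane, rose from 3.69, 4.41, 4.59 and 4.37 to 7.37, 8.26, 8.16 and 8.30 (13.5-fold).

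Other rises of 8-fold or more without overlap were in SH3BP2, an adaptor of immune receptor kinases, DAPL1, RHEX, an erythropoietin signalling factor, CSGALNACT1, an enzyme of chondroitin synthesis, STAG3, a cohesin subunit of meiosis, and OR7A5, an olfactory receptor. SH3BP2 signals were 4.97, 5.53, 4.79 and 5.17 untreated and 8.44, 8.28, 8.53 and 8.59 treated (difference 3.34, SE 0.16), and all 4 of its probe sets rose. DAPL1 rose by 3.75 (SE 0.33) on its only probe set. RHEX and OR7A5 rose by 3.30 and 3.27, though their other probe sets rose less, by 1.20 and 1.42. CSGALNACT1 rose by 3.43 and STAG3 by 3.19, each on every probe set. The probe sets of TP53INP1, a regulator of autophagy, rose by different amounts, of 5.10 and 0.49.

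The largest falls were smaller. CHI3L2, a chitinase-like secreted protein, fell from 8.14, 7.75, 7.69 and 7.72 to 5.56, 5.94, 5.48 and 5.76, a difference of -2.14 (SE 0.23, 4.4-fold, adjusted p = 3.5e-06). The groups did not overlap, and 2 of 3 probe sets fell. SLC8A1, a sodium-calcium exchanger, fell from 5.31, 6.08, 6.0 and 5.92 to 3.75, 4.26, 4.21 and 4.04 on 1 of 2 probe sets. GLDC, the glycine-cleaving enzyme of mitochondria, fell from 7.09, 7.31, 6.73 and 7.04 to 5.90, 5.15, 5.01 and 5.10 on both. CAPSL, a calcium-binding protein, fell by 1.75, KCNJ2, an inward rectifier potassium channel, by 1.53, and NEXN, an actin-binding protein, by 1.49. NEXN fell on all 7 of its probe sets, KCNJ2 on 1 of 2. ZNF423, a partner and inhibitor of the B-cell factor EBF1, fell by 1.57 (SE 0.35, adjusted p = 0.004), the widest error of these genes, with treated signals of 5.25, 4.87, 3.80 and 4.28.

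**Figure D2:**
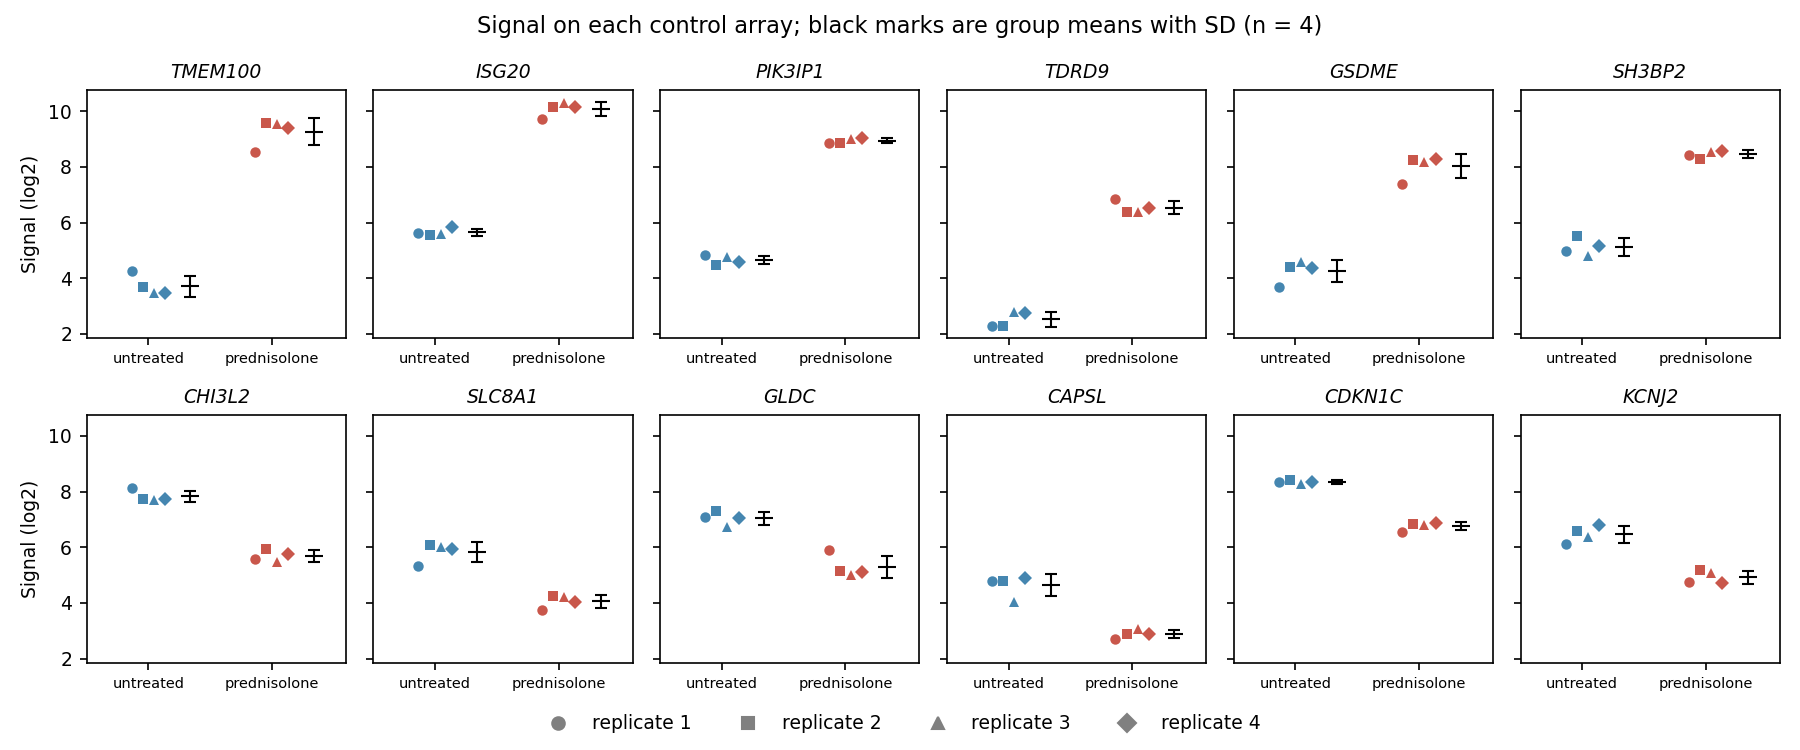
The log2 signal of 12 genes on each of the 8 control arrays (y axis), untreated in blue and prednisolone in red, with a symbol for each replicate number and the group mean with SD (n = 4) in black. In every panel the 4 treated arrays lie wholly above (upper row) or wholly below (lower row) the 4 untreated ones, from TMEM100 with a difference of 5.55 to KCNJ2 with -1.53.

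Most genes that copy DNA fell, and a larger share of them than of any other list examined. Of 63 measured replication genes 51 fell and 2 rose, with a median difference of -0.78. Fewer cells in S phase and less replication RNA per cell cannot be told apart in bulk arrays. The E2F factors, which switch on these genes at the start of S phase, bind sites near gene starts. The windows of 1 gene each of helicase activation, licensing and the clamp are shown because they carry such letters, with TTTCCCGC or TTTGGCGC on either strand in capitals, 5′ to 3′ on the gene's strand, from RefSeq GRCh38.p14. The window of GINS2 is chr16:85688955-85689204, that of MCM6 chr2:135876444-135876693 and that of PCNA chr20:5126623-5126872, all on the minus strand.
GINS2: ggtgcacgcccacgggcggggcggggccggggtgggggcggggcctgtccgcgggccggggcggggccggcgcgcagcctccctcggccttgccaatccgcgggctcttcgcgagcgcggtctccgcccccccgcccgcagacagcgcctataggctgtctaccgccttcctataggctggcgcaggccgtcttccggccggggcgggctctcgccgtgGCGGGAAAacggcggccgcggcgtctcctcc
MCM6: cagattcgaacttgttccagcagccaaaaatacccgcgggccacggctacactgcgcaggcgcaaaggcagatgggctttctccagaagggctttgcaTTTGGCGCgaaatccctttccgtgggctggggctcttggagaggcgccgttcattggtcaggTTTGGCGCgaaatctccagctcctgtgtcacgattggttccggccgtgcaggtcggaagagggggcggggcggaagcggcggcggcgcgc
PCNA: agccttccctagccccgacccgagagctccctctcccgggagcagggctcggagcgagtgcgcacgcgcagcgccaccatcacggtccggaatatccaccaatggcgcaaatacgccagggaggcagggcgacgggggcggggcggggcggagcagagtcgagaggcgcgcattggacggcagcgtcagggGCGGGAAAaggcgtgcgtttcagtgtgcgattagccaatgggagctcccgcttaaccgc

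These letters were in 16 of 55 windows of the replication genes that fell (29.1%, 42 of 51 genes having a window). They were in 2.44% of windows of all measured genes and 1.93% of all 35116 windows, with both forms counted once per window. In the windows shown, the match nearest to the start was 31 bases before it in GINS2, 90 in MCM6 and 59 in PCNA. A match is a description of the letters, and binding was not measured.

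Licensing factors, which load the helicase onto origins, fell in 12 of 15 cases. MCM6, a helicase subunit, had signals between 10.89 and 11.02 untreated and 9.71, 9.46, 9.31 and 9.47 treated, a fall of 1.47 (SE 0.099, adjusted p = 1.2e-08). MCM4 and MCM2, further subunits, fell by 1.44 and 1.36, and CDC6, which loads them, by 1.25. The 3 licensing genes not called, named after their values were seen, were ORC2, ORC4 and ORC5 of the origin recognition complex. Helicase activators fell in 13 of 15 cases. GINS2, a part of the active helicase, went from 9.30, 9.32, 9.29 and 9.41 to 8.04, 7.61, 7.41 and 7.45, a fall of 1.7 (SE 0.12, adjusted p = 2e-08). In treated cells its replicate 1 was the least lowered array, yet far below all untreated ones. CDC45, its partner, fell by 1.48, MCM10 by 1.48 and WDHD1, which links helicase and polymerase, by 1.37.

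At the fork, 13 of 15 clamp, loader and ligase genes fell. PCNA, the sliding clamp, was bright, at 12.49, 12.40, 12.43 and 12.39 untreated and 11.58, 11.19, 11.14 and 11.22 treated (fall of 1.14, SE 0.094, adjusted p = 1.2e-07). RFC5, a clamp loader subunit, fell by 1.14 and FEN1, which trims Okazaki fragments, by 1.18. Chromatin assembly factors fell in 5 of 6 cases, CHAF1A by 1.08 and DNMT1, which copies DNA methylation, by 0.71. The polymerases were mixed: 8 of 12 fell, led by POLE2 (fell by 1.30), and 2 rose. POLA2, the B subunit of the priming polymerase, rose from 8.17, 7.90, 7.87 and 7.90 to 9.32, 9.68, 9.56 and 9.64, a difference of 1.59 (SE 0.22, adjusted p = 5e-05) on both probe sets. POLD4, the smallest subunit of polymerase delta, rose from 6.46, 6.51, 6.54 and 6.68 to 7.90, 7.18, 7.23 and 7.02 on all 3 probe sets, while POLD1, the catalytic subunit, fell by 0.84.

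**Figure D3:**
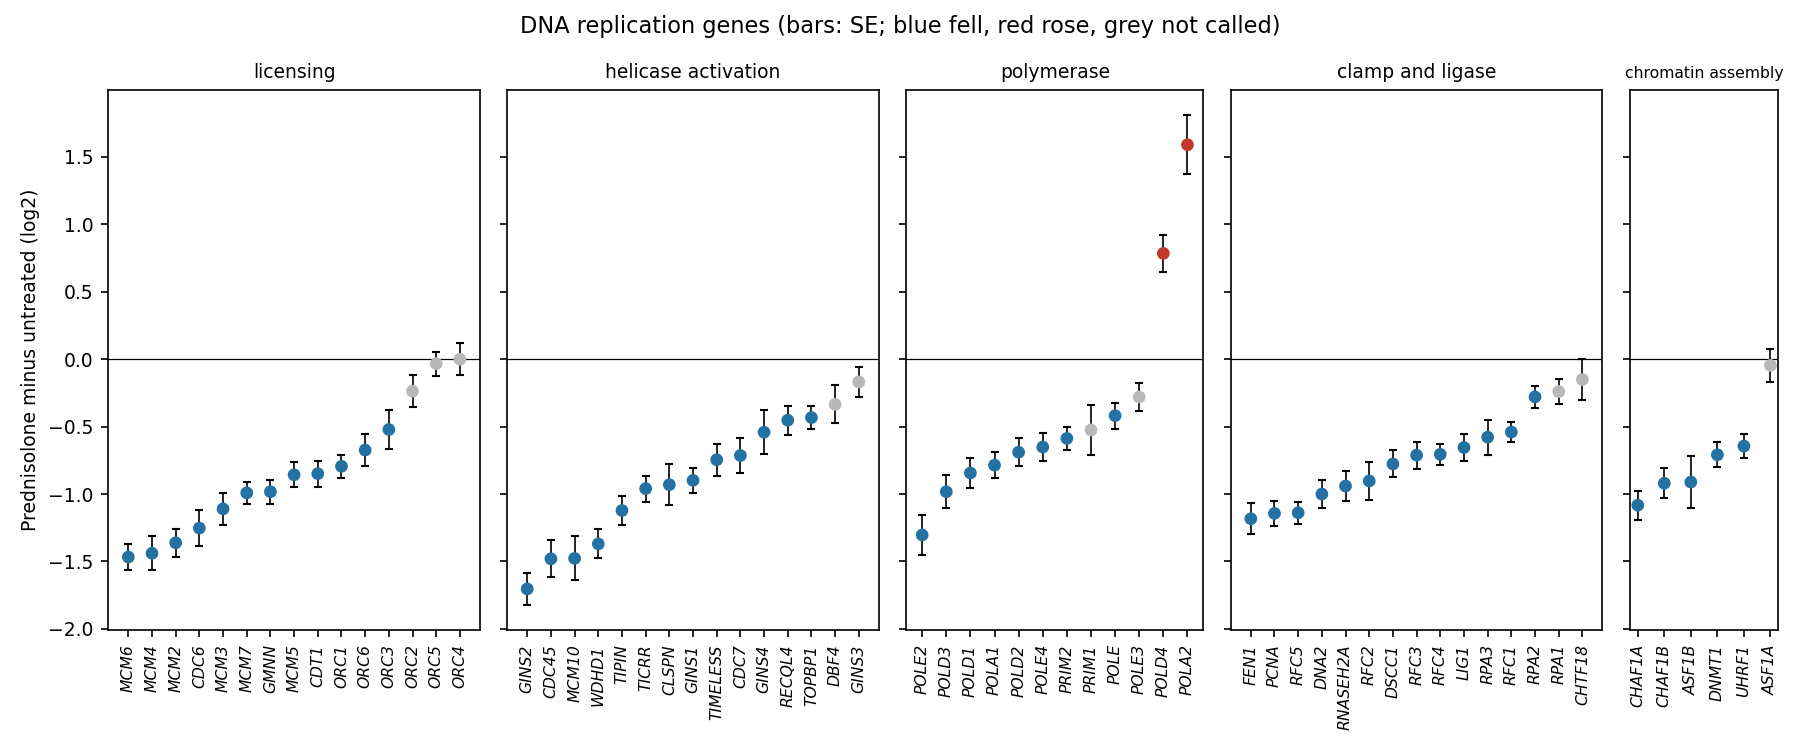
Prednisolone minus untreated (log2, y axis, with SE bars) for the 63 measured replication genes, in panels by role; blue genes fell, red rose and grey were not called. All but POLA2 (1.59) and POLD4 (0.78) lie at or below 0, down to GINS2 at -1.7.

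Many genes of nucleotide synthesis fell as well. Of 38 genes 23 fell and 1 rose (median -0.49). RRM2, the regulated subunit of ribonucleotide reductase, went from 10.81, 10.62, 10.57 and 10.61 to 9.77, 9.36, 9.17 and 9.30 (fall of 1.25, adjusted p = 4e-07). TK1, which salvages thymidine, fell by 1.12, DUT, which clears dUTP, by 0.93, PAICS of purine synthesis by 1.07, CAD of pyrimidine synthesis by 0.96, and MTHFD1 of the folate cycle by 0.96. The single riser, the mitochondrial kinase CMPK2 (1.38), was called on 1 of its 3 probe sets, and the lowest of the others gave 0.034.

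Of 42 repair genes 21 fell (median -0.30). Besides UNG, which removes uracil from DNA, they included EXO1, a nuclease of mismatch repair (-1.33), RAD51AP1 of homologous recombination (-1.23), CHEK1, the checkpoint kinase of stalled forks (-1.03), and MSH6 of mismatch recognition (-1.02). UNG signals were 9.85, 9.68, 9.71 and 9.67 untreated and 8.41, 7.46, 7.33 and 7.28 treated, so treated replicate 1 was the highest treated array and still below all untreated ones. NEIL2, a glycosylase, was the 1 member that rose, by 0.39.

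Some genes of mitosis also fell. Of 45 members 19 fell and the others were not called (median -0.36). SPC25 of the kinetochore went from 8.08, 8.17, 8.07 and 8.13 to 7.06, 7.06, 6.85 and 7.04 (fall of 1.11, adjusted p = 3.5e-08). SPC24, its partner in the same complex, fell by 1.01, and MAD2L1 of the spindle checkpoint by 0.84. CDK1, the mitotic kinase, fell by 0.58 and AURKB, the kinase of the chromosomal passenger complex, by 0.57.

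Upstream of S phase, 19 of 41 genes of G1 control and the MYC network fell and 4 rose (median -0.29). Among cyclins and kinases 8 of 11 fell. CCND3, the D-type cyclin of B-cell precursors, had signals of 11.76, 11.64, 11.72 and 11.74 untreated and 10.30, 10.37, 10.30 and 10.23 treated (fall of 1.41, SE 0.096, adjusted p = 1.2e-08), and the groups were far apart. CDC25A, which activates cyclin-dependent kinases, fell by 1.55 and CCNE1, the cyclin of S phase entry, by 0.99. CCND2, another D-type cyclin, had a difference of 0.72 from a dim 4.05, and 7 alternatives ended its call. Of 10 E2F genes 7 fell and 1 rose. Among the fallers were E2F8 and E2F7, both repressors of the cycle, which fell by 1.33 and 1.14, and E2F1 by 0.76. Another E2F7 probe set gave 0.023 and was not called. MYC, a transcription factor that drives growth, went from 12.30, 12.26, 12.26 and 12.18 to 11.32, 11.09, 11.04 and 11.07 on its only probe set, and MXD4, which competes with MYC for its partner MAX, rose from 5.74, 5.54, 5.76 and 5.76 to 7.72, 7.01, 6.88 and 6.89. SKP2, the ligase subunit that marks p27, fell by 1.73 on a probe set and by 0.64 on the other. Among 9 CDK inhibitors and pocket proteins, 3 fell. Besides CDKN1C, CDKN1A, the p21 inhibitor, fell by 1.03 (adjusted p = 0.011) and RBL1 by 0.68. CDKN1A untreated replicate 1, at 10.77, was well above the other untreated arrays, which lay between 9.92 and 9.95, and without the replicate 1 arrays its difference was -0.93 (adjusted p = 2.4e-06).

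Regulators of apoptosis moved on both sides. Of 43 members 6 rose (14%) and 5 fell (11.6%), against 5.73% and 8.43% of all genes. Their median was -0.037. BCL2, which holds off the mitochondrial pathway, went from 8.99, 8.86, 8.74 and 8.77 to 6.51, 6.39, 6.28 and 6.35, with no overlap, and 5 of its 6 probe sets fell. MCL1, a relative with the same role, rose slightly, from 10.12, 10.01, 10.14 and 10.03 to 10.50, 10.48, 10.43 and 10.40 (0.37, adjusted p = 0.012). Among BH3-only proteins, which oppose BCL2, 3 of 8 rose and 2 fell. BMF rose from 4.85, 4.23, 4.58 and 4.80 to 6.60, 6.66, 6.59 and 6.74, on 1 of its 4 probe sets. BCL2L11, the BIM gene, rose from 7.26, 7.41, 7.26 and 7.29 to 9.06, 8.37, 8.31 and 8.30, on 10 of its 14 probe sets. BID and HRK, of the same class, fell by 0.65 and 0.63. The pore-forming BAX was not called, at -0.42 (SE 0.37, adjusted p = 0.59). CASP6, an effector caspase, rose by 0.65, and the death receptor FAS was not called (0.27, adjusted p = 0.7). Without the replicate 1 arrays FAS was called, at 0.30 (adjusted p = 0.018). CASP1 fell from 7.69, 7.95, 7.60 and 7.76 to 6.90, 7.08, 6.97 and 6.86, and CARD16, a decoy of its recruitment domain, by 1.03 on 1 of 2 probe sets. In the list of cytokines and inflammasome parts 2 of 28 fell, CARD16 and IL1B, a share of 7.14% against 8.43% of all genes. IL1B, the cytokine that CASP1 matures, went from 6.71, 7.24, 7.35 and 7.41 to 4.47, 5.58, 5.46 and 5.30, again without overlap.

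Most MHC class II genes, which present antigen to helper T cells, rose. Of 11 class II molecules and their chaperones 10 rose (median 1.27), against 2 of 7 genes of control and antigen processing, of which 2 fell. Over all 18 the median was 0.68. HLA-DMB, a chain of the editor that loads peptides, had signals of 7.55, 7.93, 7.79 and 7.87 untreated and 9.86, 10.02, 9.99 and 9.96 treated (difference 2.17, SE 0.31, adjusted p = 7.7e-05). HLA-DMA, its partner, rose by 1.86, HLA-DQA1 by 2.13 on 2 of 4 probe sets, and HLA-DOA, which curbs the editor, by 1.44. CIITA, the master activator of class II, rose from 6.48, 7.04, 7.15 and 7.14 to 8.72, 9.05, 9.08 and 9.01 (2.01, SE 0.32). IFI30, a thiol reductase of antigen processing, fell from 9.18, 9.04, 8.95 and 9.08 to 8.14, 8.14, 7.99 and 8.16 (fall of 0.95, adjusted p = 1.2e-07). HLA genes have close relatives and many alleles, and whether their probe sets share signal was not tested.

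Class II promoters hold a Y box, and its short form CCAAT was searched here. The windows of HLA-DMB (chr6:32941029-32941278) and CD74, the invariant chain (chr5:150412911-150413160), both on the minus strand, are shown with these letters in capitals. They were chosen because both genes rose and their windows hold the letters. HLA-DPA1 also rose, by 0.93, but its windows held 0 matches.
HLA-DMB: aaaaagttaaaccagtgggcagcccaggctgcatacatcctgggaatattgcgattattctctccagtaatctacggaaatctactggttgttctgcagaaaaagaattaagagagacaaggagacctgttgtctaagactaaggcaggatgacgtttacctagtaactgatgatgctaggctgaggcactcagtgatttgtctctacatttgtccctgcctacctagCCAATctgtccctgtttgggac
CD74: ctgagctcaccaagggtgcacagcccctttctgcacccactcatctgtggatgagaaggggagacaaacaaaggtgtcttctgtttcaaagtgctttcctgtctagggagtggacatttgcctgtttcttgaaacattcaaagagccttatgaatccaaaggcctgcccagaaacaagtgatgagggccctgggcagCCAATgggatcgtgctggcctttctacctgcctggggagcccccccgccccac

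CCAAT, on either strand, was in 9 of 13 windows of the class II genes that rose (69.2%) and in 32.8% of windows of all measured genes. It was also in 60% of windows of the replication genes that fell. A match is a description of the letters, and whether it is a Y box was not tested. In class I, 4 of 18 genes rose (22.2%) and 2 fell (11.1%), against 5.73% and 8.43% of all genes. TAP1, the peptide transporter, rose from 9.61, 9.65, 9.57 and 9.50 to 10.47, 10.73, 10.66 and 10.71 (1.06), PSMB8 of the immunoproteasome by 0.67, HLA-F by 0.86 and HLA-E by 0.60. PSMB10, another immunoproteasome subunit, fell by 0.38.

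Leukocyte immunoglobulin-like receptors, a family of paired activating and inhibitory receptors of chromosome 19, rose in 5 of 10 measured members. The inhibitory LILRB1 went from 2.27, 2.75, 2.98 and 2.86 to 5.43, 4.43, 4.59 and 4.95 (2.13, SE 0.19, adjusted p = 4.2e-07), from near the lowest signals of the arrays. LILRB2, also inhibitory, went from 3.04, 2.75, 2.47 and 2.70 to 6.77, 6.91, 7.04 and 7.02, and the activating LILRA2 from 5.45, 5.25, 4.90 and 4.89 to 9.90, 9.21, 9.30 and 9.56. LAIR1, a collagen receptor, rose by 1.03. The list's median was 0.50. These genes are close copies of each other, and whether their probe sets share signal was not tested.

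B-lineage genes moved in both directions. Of 48 B-lineage genes 8 rose (16.7%) and 7 fell (14.6%), against 5.73% and 8.43% of all genes, and their median was -0.038. Of 14 B-precursor markers 1 rose and 4 fell. The inhibitors of E-proteins went opposite ways: ID3 fell from 10.05, 9.48, 9.48 and 9.59 to 7.97, 7.58, 7.33 and 7.55, while ID2 rose from 7.17, 7.83, 7.67 and 7.62 to 9.47, 9.03, 8.79 and 8.88 (1.47, adjusted p = 0.0012). PRDM1, the plasma cell factor, rose from 4.32, 3.48, 3.21 and 3.49 to 7.25, 7.66, 7.69 and 7.55, and IRF4, another factor of plasma cells, by 0.70. LEF1, a Wnt pathway factor of early B cells, went from 12.27, 12.12, 12.23 and 12.11 to 11.05, 11.07, 11.05 and 11.08 (fall of 1.12) on all 9 probe sets, and MEF2C fell by 0.65. In the pre-B receptor list 7 of 21 fell and 2 rose. BLK, a Src-family kinase, rose from 7.27, 7.32, 7.14 and 7.32 to 8.52, 8.59, 8.56 and 8.60 (1.30), while the signalling genes PLCG2, PTPN6 and BLNK fell by 0.75, 0.78 and 0.36. CD22, an inhibitory co-receptor, fell by 0.89.

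Surface antigens rose in 6 of 19 cases. CD52, the target of alemtuzumab, went from 6.24, 5.97, 6.08 and 6.08 to 10.24, 8.61, 8.38 and 8.59 (2.86, SE 0.27, adjusted p = 6.7e-07), and treated replicate 1 was the highest array by a wide margin. Without the 4 arrays of replicate 1 its difference was 2.49. CD53, a tetraspanin, rose from 10.15, 10.41, 10.46 and 10.49 to 12.39, 12.26, 12.26 and 12.35 (1.94), evenly on all arrays. CD69, an early activation antigen, went from 4.24, 6.97, 6.97 and 6.95 to 8.24, 9.35, 9.32 and 9.32 (2.77, adjusted p = 0.00066), with replicate 1 lowest in both groups. Without the replicate 1 arrays the difference was 2.37. CD9, another tetraspanin, fell by 0.53. GZMK and GZMA, granzyme genes next to each other on chromosome 5 and usually read in killer cells, rose by 2.72 and 1.38 and were chosen after their values were seen. Markers of T and NK cells did not rise with them: of 15 the 2 that were called, LCK and ZAP70, fell, by 0.67 and 0.61, and the summed log2 signal of the list was 65.5 to 68.6 on untreated and 63.8 to 66.1 on treated arrays. The myeloid marker LYZ fell by 0.95 from a dim 4.01.

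Some receptors and inhibitors of cytokine signalling rose. Of 32 genes of the IL7 receptor and JAK-STAT list 10 rose and the rest were not called (median 0.040). Leaving out 1 control array moved this median between 0.019, without untreated replicate 2, and 0.089, without treated replicate 2. SOCS1, which blocks JAK kinases, went from 3.95, 4.34, 4.46 and 4.09 to 7.14, 7.29, 7.01 and 7.15 (2.94, SE 0.14, adjusted p = 1.3e-10), on both probe sets, of which the weaker gave 0.89. Its chromosome 16 neighbour CLEC16A, chosen after its values were seen, rose by 1.63. SOCS2, a relative, rose from 9.93, 10.40, 10.33 and 10.37 to 12.20, 12.33, 12.31 and 12.32 (2.03). IL7R, the receptor that feeds B-cell precursors, rose from 10.05, 9.94, 9.86 and 10.02 to 10.36, 10.35, 10.48 and 10.33 (0.41), IL6ST, the shared gp130 receptor chain, by 1.10, JAK2 by 0.63 and STAT3 by 0.58.

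In NF-kappaB signalling 3 of 26 genes rose (11.5%) and 1 fell (3.85%), against 5.73% and 8.43% of all genes. All called members were inhibitors, the faller being TNFAIP3. NFKBIZ, a nuclear regulator of the pathway, went from 5.09, 4.80, 4.60 and 4.90 to 7.66, 7.24, 7.38 and 7.31 (2.55, adjusted p = 4.1e-10), NFKBIA from 9.25, 9.28, 9.30 and 9.26 to 10.91, 10.78, 10.79 and 10.88, and CYLD, a deubiquitinase, rose by 0.47. Other CYLD probe sets gave 0.051 to 0.20 and were not called. In MAP kinase feedback DUSP10 and DUSP6, phosphatases of different MAP kinases, rose by 1.13 and 1.05, against the fall of DUSP1. Of 29 genes of MAP kinase feedback and early factors 2 rose (6.9%) and 5 fell (17.2%). Purine and lipid mediator receptors rose in 3 of 40 cases (7.5%) and fell in 4 (10.0%), near the shares of all genes. Among them PTGER2, for prostaglandin E2, fell from 6.89, 6.94, 6.68 and 6.57 to 5.30, 5.54, 5.29 and 5.44 (fall of 1.37, adjusted p = 1.6e-07) and PTGER4 by 0.56. The ATP-gated channel P2RX5 rose from 4.58, 4.23, 4.43 and 4.58 to 6.64, 6.37, 6.22 and 6.23. Of 15 Toll-like receptor genes 3 fell, among them CD180 and its partner LY86, by 0.77 and 0.71. Of 34 interferon-stimulated genes 3 rose (8.82%) and 5 fell (14.7%), against 5.73% and 8.43% of all genes. Among them MX1, an antiviral GTPase, rose by 1.65 and IFIT1, an RNA sensor, fell from 7.04 to 6.20. In homing and adhesion 3 of 32 genes rose (9.38%) and 4 fell (12.5%), against 5.73% and 8.43% of all genes. The chemokine receptor CXCR4, which keeps B-cell precursors in marrow, was not called (0.25, adjusted p = 0.28). Without the replicate 1 arrays CXCR4 was called (0.23, adjusted p = 0.024). The integrins ITGB2 and ITGA4 fell by 1.03 and 0.67, in a set of 12 integrin genes where 1 rose and 2 fell.

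Some genes of ribosome building fell, and no ribosomal protein gene was called. Of 42 biogenesis genes 17 fell (median -0.33), among them BYSL, an assembly factor, from 8.45, 8.35, 8.29 and 8.31 to 6.75, 6.66, 6.32 and 6.51, on 1 of its 3 probe sets. DKC1 and LYAR, which modify and process ribosomal RNA, fell by 0.74 and 0.71. Of 43 ribosomal protein genes limma called 0, with 0 at an unadjusted p under 0.05, and their differences ranged from -0.070 to 0.11. The spliceosome list fell in 11 of 27 (median -0.29), led by SNRPA of the U1 particle (-0.88). Of 48 mitochondrial ribosome genes 11 fell, and MRPL17 fell most, from 9.41, 9.39, 9.35 and 9.45 to 8.45, 8.23, 7.95 and 8.21. Their median was -0.20, and that of 53 respiratory chain genes -0.13, with 7 fallers (13.2%, against 8.43% of all genes).

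Many genes of amino acid supply fell, and replicate 1 stood apart in them. Of 33 genes of amino acid transport, synthesis and charging 17 fell and 1 rose (median -0.42). On the untreated arrays the list's median relative to the untreated mean was 0.38 in replicate 1 and -0.12, -0.11 and -0.081 in the others. Without the 4 arrays of replicate 1 the median difference was -0.23. ASS1, which makes arginine, fell from 9.44, 8.89, 8.74 and 8.93 to 7.43, 7.93, 7.52 and 7.70, with replicate 1 highest untreated and lowest treated. STC2 and PYCR1, of the stress and proline branches, fell by 1.0 and 0.92, and PHGDH, the first enzyme of serine synthesis, went from 11.20, 10.43, 10.52 and 10.49 to 9.91, 9.88, 9.89 and 9.87, a difference of -0.77. Without the replicate 1 arrays the differences were -1.14 for ASS1 and -0.60 for PHGDH. TRIB3, a pseudokinase of the ER stress list that answers the same signals, fell by 0.92, but its untreated replicate 1 stood at 10.43 against 9.0 to 9.07, and 6 alternatives ended the call, among them that without this array. Without all 4 arrays of replicate 1 its difference was -0.58 and was called (adjusted p = 3.4e-05). SLC38A1, a glutamine carrier, was the 1 riser, from 10.98, 10.95, 10.98 and 10.98 to 11.62, 11.70, 11.66 and 11.65.

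**Figure D4:**
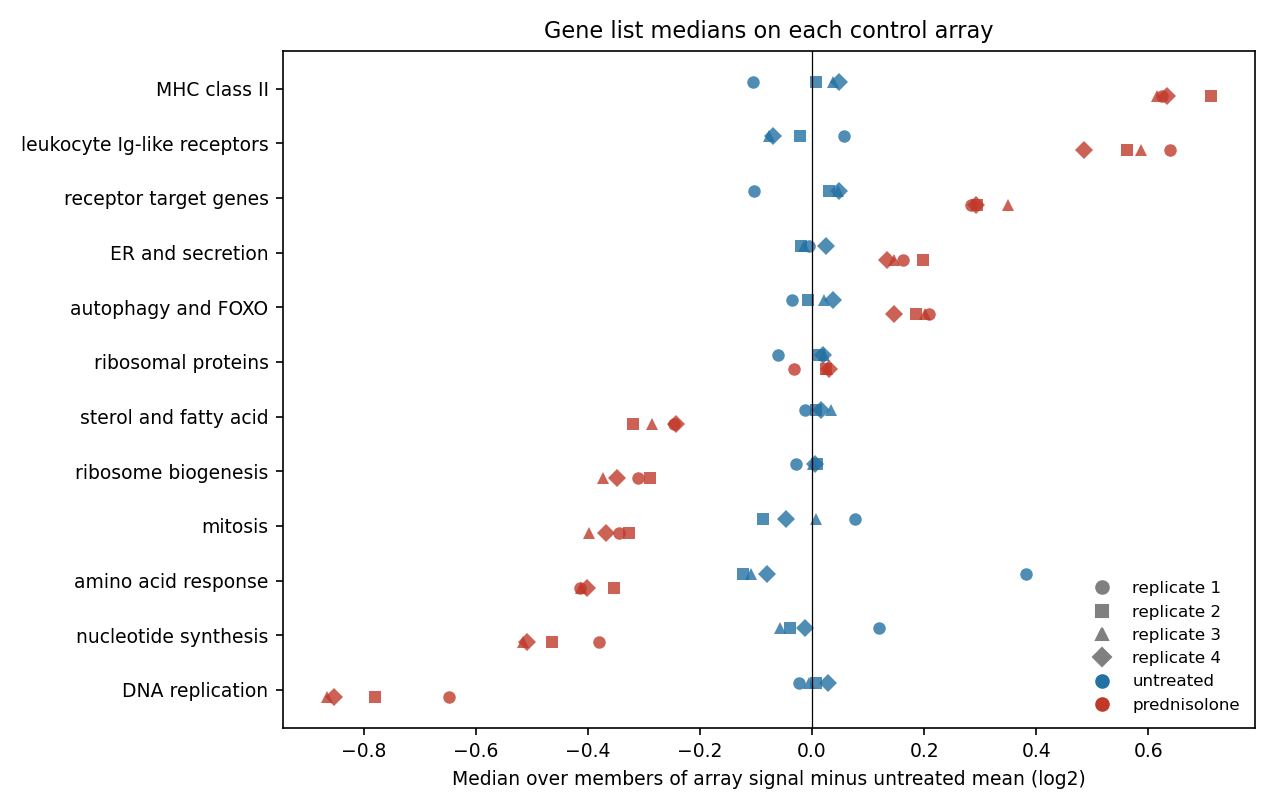
For 12 gene lists, the median over members of the array's signal minus the gene's untreated mean (log2, x axis) on each of the 8 control arrays, untreated in blue and prednisolone in red, with a symbol for each replicate number. Among these 12 lists, treated and untreated arrays separate in all but ribosomal proteins, and untreated replicate 1 of the amino acid list stands apart at 0.38. In several lists not drawn, such as apoptosis regulators, B-lineage factors and MHC class I, the arrays overlap.

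Some glucose and lipid genes fell. Of 52 genes of glucose and energy use 14 fell and 2 rose (median -0.19), including 6 of 20 glycolytic genes. Without treated replicate 1 the median of the whole list was -0.12. PKM, the last enzyme of glycolysis, went from 8.71, 9.0, 9.05 and 9.05 to 8.11, 8.10, 7.75 and 7.95, and IDH2 of mitochondria fell by 0.88. TXNIP, which curbs glucose uptake, went the other way, from 9.04, 8.63, 8.98 and 8.97 to 12.32, 12.90, 12.88 and 12.82. Of 38 lipid genes 16 fell and 3 rose (median -0.28). ELOVL6 and SCD, which lengthen and desaturate fatty acids, fell by 1.02 and 0.92, and FDPS of the sterol pathway by 0.83. LSS, a later sterol enzyme, rose from 6.87, 7.38, 7.46 and 7.39 to 8.65, 8.78, 8.91 and 8.99 (1.56) on all 3 probe sets, and ABCA1, the cholesterol exporter, by 0.80 with arrays that overlap.

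Some recycling and secretory genes rose. Of 64 genes of autophagy, lysosome and FOXO 19 rose and 1 fell (median 0.16). The 10 autophagy risers included MAP1LC3B, which coats autophagosomes (0.73), and ATG12, a part of its conjugation machinery (0.52). Another ATG12 probe set gave 0.070 and was not called. CTSB, a lysosomal protease, went from 8.73, 8.80, 8.88 and 8.82 to 10.03, 9.84, 9.68 and 9.78 (1.02), and TFEB, the lysosomal master factor, rose by 0.52. Among FOXO targets FBXO32, a ubiquitin ligase subunit, rose by 0.93 and INSR, the insulin receptor, by 1.0. Of 30 genes of the endoplasmic reticulum 8 rose and 2 fell (median 0.18). Among risers were HSPA5, its main chaperone, from 10.87, 10.98, 10.89 and 10.97 to 11.89, 11.51, 11.48 and 11.45, and DNAJB11, a helper of it, by 0.54. In the cytoskeleton list EZR, which ties membrane to actin, rose by 1.26 on all 5 probe sets.

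Of 42 chromatin regulators 11 fell and 4 rose. DNMT3B, which sets new DNA methylation, rose, from 7.26, 7.18, 7.37 and 7.28 to 9.70, 9.59, 9.69 and 9.79 (2.42, SE 0.17, adjusted p = 2.2e-08) on 8 of 11 probe sets, while DNMT1 fell. HDAC9, a histone deacetylase, fell by 1.04, CBX2 of Polycomb by 0.90 and EZH2, its methyltransferase, by 0.60 with overlapping arrays. Histone genes rose in 5 of 20 cases and fell in 3, led by H2BC21 (1.54) and H2AC6 (1.32), while the variant H2AZ1 fell by 0.44. Histone genes are near-identical copies, so their probe sets may share signal, which was not tested.

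**Figure D5:**
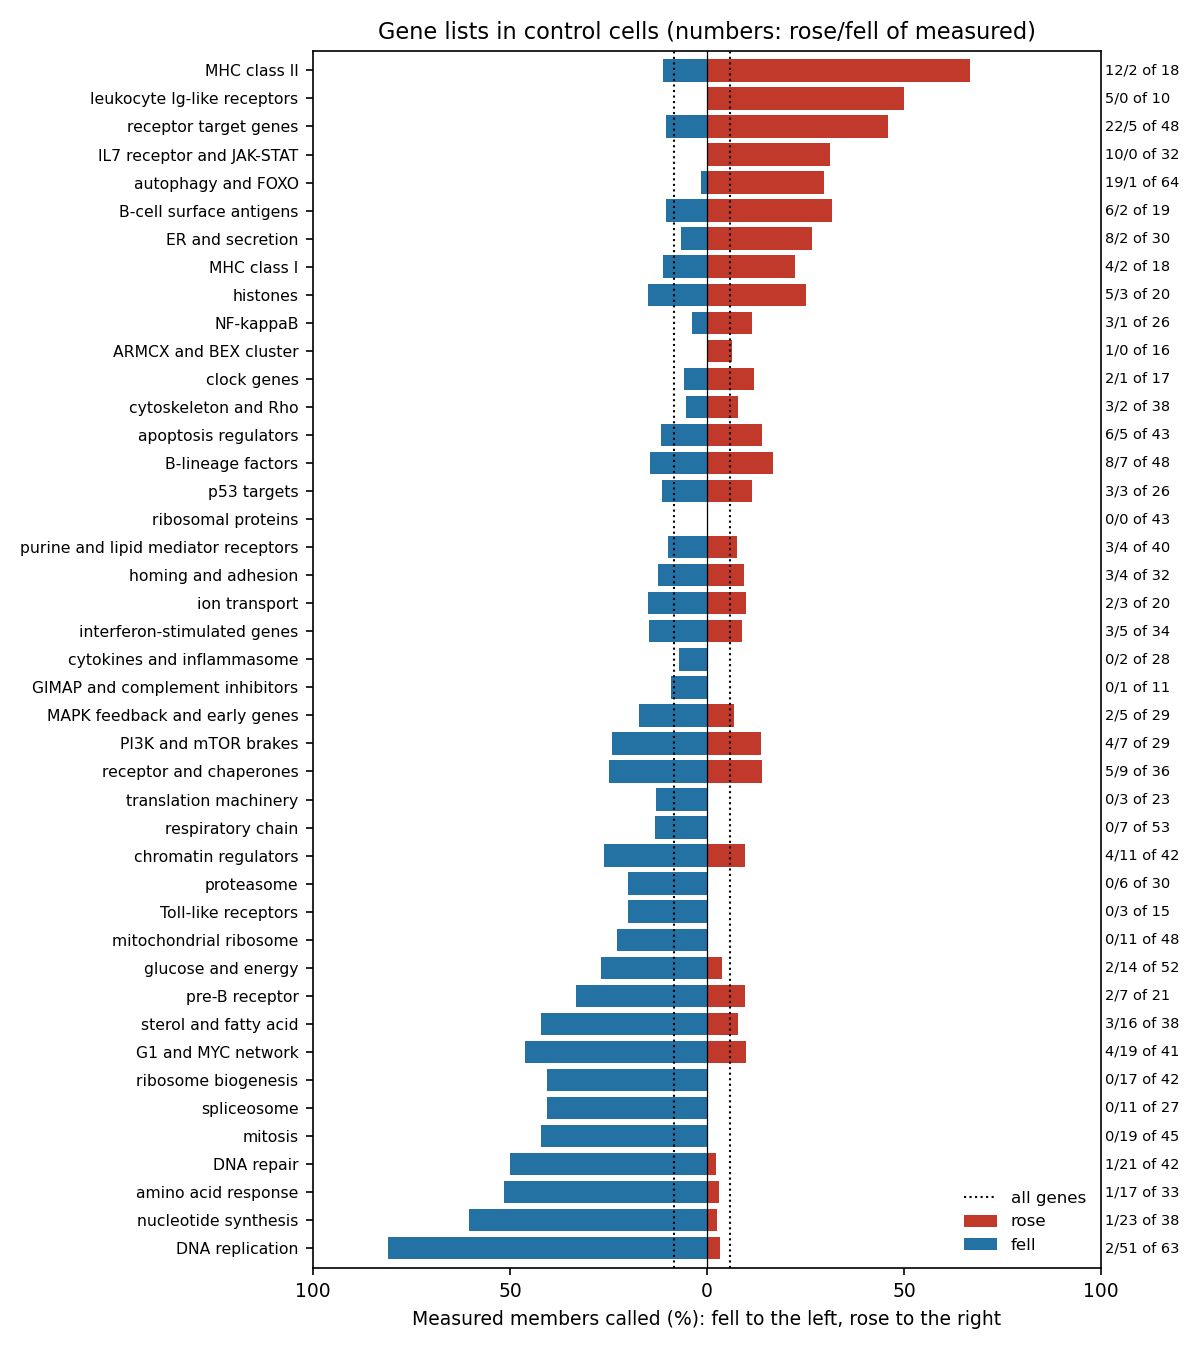
Share of measured members called (%), fell in blue to the left and rose in red to the right, for each gene list other than the cell type markers, with the number that rose and fell at the right; dotted lines mark 5.73% higher and 8.43% lower over all genes. DNA replication is at the foot with 51 of 63 fallers and class II at the top with 12 of 18 risers.

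Several probe sets of a gene mostly moved alike. Of the called genes 1932 had more than 1 probe set, 1171 of these had at least 2 called in the gene's direction, and 6 had 1 called the opposite way. Over probe sets, 12.5% were called. Some 2-fold changes were in neighbours on the chromosome: 21 runs of adjacent measured genes moved 2-fold the same way. They include P2RY14 with GPR171, on chromosome 3, where the receptor GPR171 went from 2.83, 2.78, 2.75 and 2.88 to 4.63, 5.44, 5.42 and 5.47, FKBP5 with ARMC12 on chromosome 6 (1.97, chosen after its values were seen), and BYSL with CCND3, which both fell.

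The response of cells labelled CASP1 was set against that of control cells by testing the gap between both responses, which share no arrays. The CASP1 signal went against the label, with means of 5.69 on untreated arrays labelled CASP1 and 7.75 on untreated control arrays, so directions follow the labels. The gap was called for 161 of 18132 genes, or 0.888%, and of the genes called in control cells for 150 of 2568, or 5.84%. The second share is of genes chosen by the control response, which is part of the gap, so that choice can raise it. The first count was not stable: it was 289 with the replicate number as a block, 727 without the 4 arrays of replicate 1 and 96 without treated replicate 4. In the replication list 14 of 63 genes differed, with medians of -0.78 for control cells and -0.29 for those labelled CASP1. The 6 called genes with the smallest p were TXNIP, LILRB2, TP53INP1, IL7R, GPR171 and SKP2. TXNIP rose by 3.82 in control cells and by 1.19 in the others (adjusted p of the difference = 1e-07 in limma). GPR171 rose by 2.43 against a difference of 0.23 in the others, and IL7R by 0.41 against 1.56. Of these 6, IL7R alone had the larger change in cells labelled CASP1. All 6 were picked among genes called in control cells, a choice that favours a larger change there, so no conclusion is drawn from this.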

How the data were processed

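The values are log2 signals of Affymetrix PrimeView arrays, deposited in the series matrix. Per the submitters' processing notes they were made by RMA. The sources used here name neither the software nor a version. Array medians lay between 4.85 and 4.93. Of 49395 probe sets, 44988 name 1 gene in GEO's platform annotation, 1832 name several, 2473 name none and 102 are controls. Each of 18132 genes was read from its single-gene probe set with the highest mean over the 16 arrays.

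Groups follow the titles. limma 3.58.1 in R 4.3.3 fitted 4 group means to all 16 arrays (12 residual degrees of freedom), with Benjamini-Hochberg adjustment over all genes and no block for the replicate number. The fit was tested on simulated data. Promoter letters come from RefSeq (GRCh38.p14) windows of 250 bases.

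Named genes are NR3C1 and CASP1, the 20 largest rises and 20 largest falls without overlap, up to 4 called members per role of a list (or 1 if none was called), up to 3 members against a list's direction, and the 6 with the smallest p for the difference between lines. Not all are described. The 4 genes GZMK, GZMA, CLEC16A and ARMC12, and the 3 ORC genes, were named after their values were seen. The members and lists were chosen with earlier results of these data known. Alternatives are in the closing section.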

Additional observations from a re-analysis of the deposited data

Results flagged for a closer look

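For 195 genes named in the text, both control groups of 4 arrays were searched for an array whose gap to the nearest of the others, as a share of the group's range, passed Dixon's 95% critical value. There were 58 such groups, or 14.9%, and in 53 of them the array was replicate 1. Chance gives about 1 in 20 for independent normal values, which the values of these chosen genes need not be. The share over all genes is not given, so the excess cannot be tied to the named genes. Untreated replicate 1 was the lowest array, with its share of the range in brackets, for ABCA1 (0.845), CD69 (0.992), CXCR4 (0.921), DUSP6 (0.931), H2BC21 (0.854), HSPE1 (0.898), IRF4 (0.843), ITGB2 (0.902), LSS (0.873), MEF2C (0.878), NR3C1 (0.863), PKM (0.835), SOCS2 (0.853), TGFBR3 (0.847) and TNFAIP3 (0.897). It was the highest untreated array for CAD (0.848), CDKN1A (0.958), CHI3L2 (0.876), FAS (0.83), PHGDH (0.885), POLA2 (0.895), PSMB8 (0.905), PYCR1 (0.874), SESN1 (0.904), STC2 (0.912), TFEB (0.912), TK1 (0.898) and TRIB3 (0.956). Treated replicate 1 was the lowest array for CD69 (0.975), CXCR4 (0.952), GPR171 (0.946), GSDME (0.847), INSR (0.844), ITGA4 (0.955), PTGER4 (0.918), RBL1 (0.863), SCD (0.879), SOCS2 (0.853), STAG3 (0.909), TNFAIP3 (0.972), TXNIP (0.855) and GZMK (0.848). It was the highest treated array for BCL2L11 (0.9), CD52 (0.877), E2F8 (0.896), FKBP5 (0.871), GLDC (0.841), HSPA5 (0.854), LAIR1 (0.905), MXD4 (0.85), POLD1 (0.946), TGFBR3 (0.857) and UNG (0.842). Another replicate was the lowest of its group for CAPSL (untreated replicate 3, 0.887), CHEK1 (treated replicate 3, 0.84), IFI30 (treated replicate 3, 0.853), MXD4 (untreated replicate 2, 0.895) and SPC25 (treated replicate 3, 0.907). In CD69 and TRIB3 the gap was also large on the log2 scale: untreated replicate 1 lay at 4.24 against 6.95 for the next array in CD69, and at 10.43 against 9.07 in TRIB3. The part of replicate 1 in these values was not tested beyond leaving it out.

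The response of cells labelled CASP1 minus that of control cells passed the test of the difference (limma adjusted p under 0.05) for 40 of these genes. Over all genes 0.888% passed it. Most of the named genes were chosen for a call in control cells, and 6 for the smallest p of this difference. That choice raises the count, so it cannot be set against the share of all genes. The difference, on the log2 scale, was above 0 for CAPSL (1.64), BCL2 (1.63), P2RX5 (1.48), GLDC (1.45), SKP2 (1.23), IL7R (1.15), GINS2 (1.03), WDHD1 (0.97), CDC45 (0.89), RFC5 (0.89), PTGER2 (0.84), IFI30 (0.82), CDC25A (0.78), CHEK1 (0.78), ELOVL6 (0.76), EXO1 (0.74), MCM6 (0.71), MRPL17 (0.67), SPC25 (0.62) and FDPS (0.59). It was below 0 for P2RY14 (-3.98), LILRB2 (-2.98), TP53INP1 (-2.81), DAPL1 (-2.80), TXNIP (-2.63), GPR171 (-2.20), TDRD9 (-2.14), LILRB1 (-1.80), SH3BP2 (-1.80), CSGALNACT1 (-1.74), KLF2 (-1.36), NFKBIZ (-1.28), GZMA (-1.28), TGFBR3 (-1.22), DUSP10 (-0.99), MXD4 (-0.99), LYZ (-0.99), H2BC21 (-0.91), PIK3IP1 (-0.80) and HLA-E (-0.54). The CASP1 signal went against the label, so which line each value belongs to follows the labels alone.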

How the results depend on the processing

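All 192 genes named in the text as called kept their sign under every alternative run that held the gene, and 189 kept the call under each. CCND2, NR3C2 and TRIB3 lost it under 7, 2 and 6 of them. The alternatives were the control arrays alone, the replicate number as a block, renewed quantile normalisation, centring on the 75th percentile, leaving out the dimmest 30% of genes, the mean of a gene's probe sets, a trended and robust fit, and leaving out arrays. The number of genes called stayed within 1.5 times 2568, except without the 4 arrays of replicate 1, where 3969 were called (1596 higher and 2373 lower). Leaving out 1 control array gave 2035 to 2556 calls. The share of calls that were higher was 40.5% as reported and 46.6% after quantile normalisation, with the median of all genes between -0.02 and 0.0026 in the alternatives that used all control arrays. The number of genes whose response differed between the lines was the least stable: 161 as reported, 289 with the replicate block, 727 without the 4 replicate 1 arrays, and 96 to 219 when 1 control array was left out, the lowest without treated replicate 4.

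Equal replicate numbers deviated together to different degrees (r = 0.51, 0.19, 0.26 and 0.076 for numbers 1 to 4), so the numbers were not taken to pair all control samples. Numbers 1 deviated together and apart from the rest, untreated replicate 1 having r from -0.29 to -0.26 with the other treated arrays. Untreated replicate 2 correlated best with its own number, untreated replicate 3 with treated replicate 4 (r = 0.26) and untreated replicate 4 with treated replicate 2 (r = 0.20). With the replicate block 3174 genes were called.

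List medians moved by more than their spread as follows. After quantile normalisation they were -0.28 for ribosome biogenesis, -0.14 for glucose and energy, 0.23 for ER and secretion and -0.23 for the spliceosome. Without the dimmest genes they were 0.59 for receptor targets, 0.094 for the IL7 receptor and JAK-STAT list and 0.69 for leukocyte Ig-like receptors. With the mean of probe sets they were -0.22 for G1 and MYC, -0.70 for DNA replication, -0.13 for glucose and energy, 0.61 for MHC class II, 0.43 for leukocyte Ig-like receptors and 0.15 for ER and secretion. Without the 4 replicate 1 arrays they were -0.25 for G1 and MYC, -0.33 for sterol and fatty acid, 0.15 for ER and secretion and -0.23 for amino acid response. Leaving out 1 array gave 0.17 to 0.30 for receptor targets, 0.15 to 0.20 for ER and secretion, -0.19 to -0.12 for glucose and energy, -0.32 to -0.23 for sterol and fatty acid and -0.34 to -0.30 for ribosome biogenesis. The cause of these moves was not tested. The 4 arrays per group limit the precision, and signals near the lowest of the arrays understate folds.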
